A study of Rattus norvegicus with 12 samples.

Results

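Transcripts of 8 cell cycle genes were followed in total RNA and in RNA precipitated with an antibody against Cpeb4 from neonatal rat heart muscle cells. The set was defined by Ensembl identifiers and consists of Ccnb1 (ENSRNOG00000058539), Ccna2 (ENSRNOG00000015423), Cdk1 (ENSRNOG00000000632), Top2a (ENSRNOG00000053047), Mki67 (ENSRNOG00000028137), Pcna (ENSRNOG00000021264), Ccnd1 (ENSRNOG00000020918) and Cdkn1a (ENSRNOG00000000521). All 8 were found among the 32883 genes of the count table. The cells were ventricular cardiomyocytes of Wistar rats labelled as 2 days old. They received phenylephrine (PE), which activates alpha-adrenergic receptors and makes heart muscle cells grow in size, for 24 h, or a mock treatment. The 12 libraries form 4 groups of 3, namely Cpeb4 immunoprecipitate (IP) of PE cells, IP of mock cells, input RNA of PE cells and input RNA of mock cells. All 4 groups share strain, age and cell type, and a control precipitate with another antibody was not analysed here.

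Cyclins activate cyclin-dependent kinases, and their periodic synthesis and destruction drive the cell from one phase of the cycle to the next. Proteins of the CPEB family bind cytoplasmic polyadenylation elements near the 3′ end of mRNAs, and cyclin B1 mRNA is a classic target of this control in Xenopus oocytes. Rodent cardiomyocytes still divide around birth and leave the cell cycle soon afterwards. The comparisons ask whether the precipitate holds more or less of these transcripts than input does, and whether PE alters either pool.

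The files give no gene symbols, and the RefSeq table at hand matched 0 of the Ensembl identifiers. Lists of other cell cycle genes, of polyadenylation factors and of markers of cardiomyocytes, fibroblasts, endothelial, smooth muscle, blood and immune cells were therefore not analysed here. The labelled cell type was not checked against markers for the same reason. In RNA of a whole culture, fewer cells of a type and less RNA per cell cannot be told apart.

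RefSeq promoters (build GRCr8, 250 bases before to 50 bases after the annotated start) were at hand for 6 of the 8 members. They are shown for cyclin B1, its partner kinase Cdk1 and the inhibitor Cdkn1a. The windows of the first pair carry the elements known from cell cycle promoters, and the window of the third carries none of them. A single annotated start, the first listed, stood for each member. Other starts of the same gene were not examined, so a window without a match does not describe the whole gene. Capitals mark every match, on either strand, to the CCAAT box (CCAAT or ATTGG), to the cell cycle homology region (TTTGAA or TTCAAA, and TTTAAA) and to the GC box (GGGCGG or CCGCCC). The sequences run 5′ to 3′ on the strand of the gene.
Ccnb1, chr2:33655176-33655475, minus strand: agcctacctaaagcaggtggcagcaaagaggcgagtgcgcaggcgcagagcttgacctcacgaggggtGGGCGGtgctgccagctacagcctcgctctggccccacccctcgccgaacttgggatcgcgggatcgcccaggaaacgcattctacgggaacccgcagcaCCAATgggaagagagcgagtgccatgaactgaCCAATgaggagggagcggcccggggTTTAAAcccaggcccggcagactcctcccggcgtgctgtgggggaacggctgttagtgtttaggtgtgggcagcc
Cdk1, chr20:19265043-19265342, plus strand: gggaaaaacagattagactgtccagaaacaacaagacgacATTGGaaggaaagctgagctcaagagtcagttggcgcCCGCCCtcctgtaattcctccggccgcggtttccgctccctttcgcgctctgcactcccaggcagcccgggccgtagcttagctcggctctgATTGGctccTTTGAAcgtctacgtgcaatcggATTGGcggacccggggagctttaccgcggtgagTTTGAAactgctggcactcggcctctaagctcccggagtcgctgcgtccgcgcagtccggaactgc
Cdkn1a, chr20:7150682-7150981, plus strand: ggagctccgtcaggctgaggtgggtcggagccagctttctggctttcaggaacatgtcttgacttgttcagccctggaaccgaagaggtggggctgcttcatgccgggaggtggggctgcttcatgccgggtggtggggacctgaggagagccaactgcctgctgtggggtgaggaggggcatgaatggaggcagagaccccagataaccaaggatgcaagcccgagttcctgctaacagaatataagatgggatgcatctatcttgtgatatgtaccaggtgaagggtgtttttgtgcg

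The Ccnb1 window held 2 CCAAT matches and 1 TTTAAA match, and the Cdk1 window held 3 CCAAT matches and 2 TTTGAA matches. A CCAAT box together with TTTGAA or TTTAAA was found in 4 of the 6 member promoters (Ccnb1, Cdk1, Top2a and Mki67), against 11.3% of all 33469 promoters of that length. The Pcna window held 1 CCAAT and 1 GC box match, and GC boxes stood in 5 of the 6 windows, against 33.1% of all promoters. These matches describe letters in the windows and are not binding sites shown by these data, since the libraries read the 3′ ends of transcripts.

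The shallowest library held 1423334 counts and the deepest 30216559. Levels are given as CPM, which are counts scaled to a common library total after TMM scaling, an adjustment that assumes most genes do not change. Some libraries lacked transcripts found elsewhere. Of genes that averaged 20 to 50 CPM by library totals over the other libraries of the same RNA type, with mock replicate 2 and PE replicate 1 left out of that average, 12.6% had 0 counts in mock IP replicate 2, 1.40% in PE input replicate 1 and 0.885% in mock input replicate 2, against at most 0.622% in the remaining 9 libraries. Of genes at 5 to 10 CPM, nearer the levels of Ccna2 and Top2a, 48.5% had 0 counts in mock IP replicate 2. Among the precipitates in that band, PE IP replicate 2 (16.7%) and mock IP replicate 3 (15.4%) had larger shares than PE IP replicate 1 (14.4%). Mock IP replicate 2 alone lay far from the other precipitates there. Among the inputs, mock input replicate 2 (14.7%) and PE input replicate 1 (13.3%) lay well above the others, which had at most 3.03%.

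The same gaps reached the members. Ccna2 had 0 counts in mock IP replicate 2, PE IP replicate 2 and PE input replicate 1. Mki67 had 0 counts in PE IP replicate 1, the deepest library, where a count of 0 allows up to 0.0629 CPM (3 counts, counting error only). Cdk1 and Top2a had 1 count each in mock IP replicate 2, although that library held 17838962 counts. IP and input of mock replicate 2 and of PE replicate 1 are the 4 libraries left out in an alternative, chosen with these data known. By the share of genes at 0 counts, not all of them stood apart. They include 3 of the 4 libraries with a gap in Ccna2, Mki67, Cdk1 or Top2a.

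No difference between the Cpeb4 precipitate and input was detected for any of the 8 transcripts in either treatment. In PE cells, 0 members were higher and 0 lower (edgeR quasi-likelihood test, adjusted p under 0.05), where 0.458% of all 10491 genes tested were higher and 1.65% lower. In mock cells, 0 members passed as well, against 0.162% of genes higher and 0.581% lower. Taken over both treatments, with 6 libraries on each side, 0 members passed, against 2.26% of genes higher and 3.62% lower. At an unadjusted p under 0.05, 1 member was lower in PE cells (Cdkn1a, background 6.21%) and 0 were higher (background 5.48%). In mock cells 0 members were higher or lower at that level (backgrounds 5.17% and 5.6%), and over both treatments 0 were (backgrounds 10% and 8.33%). The Wald test of DESeq2 passed 0 members in each of these comparisons. In PE cells it gave no adjusted p for 4698 of the 10491 genes, Top2a among them, so Top2a could not pass there. With IP and input of the same number taken as paired, 0 members passed in mock cells, while 95 genes were then higher and 177 lower, against 17 and 61 without pairing.

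**Figure D1:**
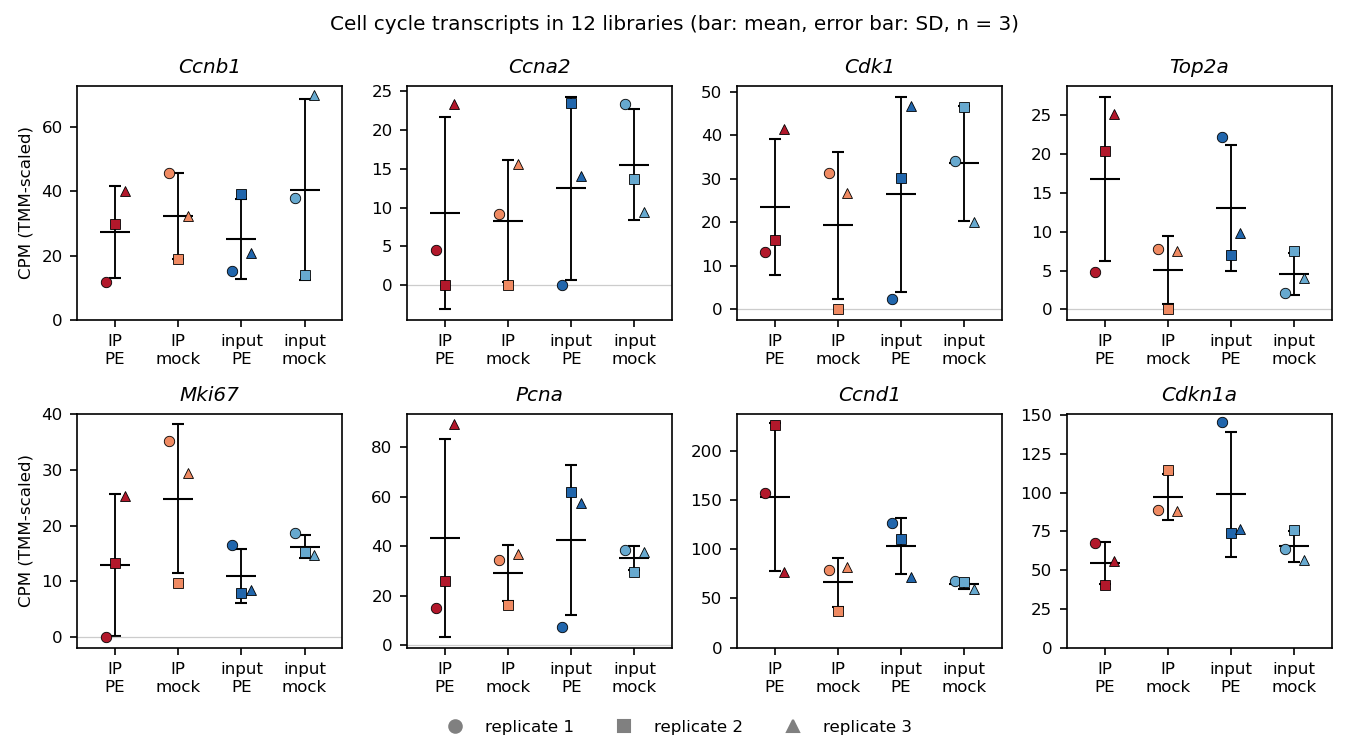
CPM after TMM scaling (vertical axis, own scale in each panel) of the 8 cell cycle transcripts in IP of PE cells, IP of mock cells, input of PE cells and input of mock cells; symbols are the 3 replicates, bars the mean and error bars the SD. Most groups overlap, while all 3 Cdkn1a values of PE IP (40.5 to 67.4 CPM) lie below all 3 of mock IP (88.3 to 114 CPM).

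Cyclin B1, the activating partner of Cdk1 at entry into mitosis, was detected in all 12 libraries. Ccnb1 had 11.9, 29.8 and 40.2 CPM in PE IP replicates 1 to 3, against 15.4, 39.1 and 20.7 CPM in PE input. In mock cells it had 45.9, 18.8 and 32.5 CPM in IP, against 37.9, 13.9 and 70.0 CPM in input. The IP and input values overlapped in both treatments. Over both treatments the log2 fold change of IP against input was -0.09 (SE 0.46, edgeR adjusted p = 0.971). Its 95% interval ran from 0.482-fold to 1.83-fold, so an enrichment above 1.83-fold relative to the TMM scaling lies outside it. The order of the Ccnb1 group means was mock input, mock IP, PE IP and PE input, and no neighbours in that order differed by more than the larger SD.

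Cdk1, the kinase that cyclin B1 activates, showed a wider spread. It had 13.2, 16.0 and 41.5 CPM in PE IP, against 2.42, 30.2 and 46.8 CPM in PE input. In mock cells the values were 31.3, 0.0385 and 26.6 CPM in IP, against 34.1, 46.6 and 20.2 CPM in input. IP and input overlapped in both treatments, and mock IP replicate 2 lay far below the other mock precipitates. The log2 fold change over both treatments was -0.49 (SE 0.91, edgeR adjusted p = 0.880), with an interval of 0.181-fold to 2.78-fold.

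Cyclin A2, which acts in S phase and G2, could be measured least precisely. Ccna2 had 4.55, 0 and 23.4 CPM in PE IP, against 0, 23.4 and 14.1 CPM in PE input. It had 9.17, 0 and 15.6 CPM in mock IP, against 23.4, 13.7 and 9.42 CPM in mock input. With a library at 0 in 3 of the 4 groups, the log2 fold change over both treatments of -0.67 had an SE of 1.30 (edgeR adjusted p = 0.886). The interval, from 0.0916-fold to 4.31-fold, leaves room for changes of several-fold in either direction.

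Pcna, the sliding clamp of DNA polymerases, had 15.1, 26.0 and 89.2 CPM in PE IP, against 7.48, 62.0 and 57.6 CPM in PE input. In mock cells it had 34.3, 16.3 and 36.9 CPM in IP, against 38.4, 29.7 and 37.7 CPM in input. The groups overlapped in both treatments, and the log2 fold change over both was -0.12 (SE 0.50, edgeR adjusted p = 0.961). Its interval of 0.441-fold to 1.93-fold was close in width to that of Ccnb1.

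Top2a, the topoisomerase that untangles replicated chromosomes, and Mki67, the Ki-67 protein that coats mitotic chromosomes, gave positive log2 fold changes of 0.25 (SE 0.90, edgeR adjusted p = 0.950) and 0.42 (SE 0.91, edgeR adjusted p = 0.901) over both treatments. Mki67 had 0, 13.3 and 25.4 CPM in PE IP, against 16.6, 7.82 and 8.48 CPM in PE input. It had 35.3, 9.73 and 29.4 CPM in mock IP, against 18.6, 15.3 and 14.8 CPM in mock input, where a single IP library, replicate 2, lay below the inputs. By library totals the mock groups of Mki67 did not overlap, with 14.2 to 50.5 CPM in IP and 7.73 to 13.4 CPM in input. On that scale 33% of all genes tested lay higher in mock IP without overlap. IP and input of mock replicate 2 and of PE replicate 1 (4 libraries) were left out in an alternative. The log2 fold change over both treatments was then 1.06 for Mki67 (edgeR adjusted p = 0.078, with a range of 0.078 to 1.00 over its alternatives) and 1.40 for Top2a (adjusted p = 0.109, range 0.109 to 1.00). Neither passed, where 670 genes were higher and 859 lower. For Top2a, the 4 libraries held the lowest value of PE IP (4.86 CPM) and of mock IP (0.0385 CPM). They held the highest of PE input (22.2 CPM) and of mock input (7.54 CPM). For Mki67, they held the lowest of each IP group (0 and 9.73 CPM) and the highest of PE input but not of mock input. Leaving out such values raises the estimates, so this alternative cannot decide whether IP holds more of either transcript. With PE IP replicate 3 alone left out, the Mki67 value was -0.08.

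Cyclin D1, the cyclin that links growth signals to entry into the cycle, averaged 153 ± 75.0 CPM in PE IP and 103 ± 28.6 CPM in PE input (SD, n = 3 each). In mock cells it averaged 66.2 ± 25.1 CPM in IP and 64.7 ± 4.83 CPM in input (SD, n = 3 each). The log2 fold change of IP against input was 0.57 in PE cells (SE 0.42, edgeR adjusted p = 0.740) and 0.03 in mock cells (SE 0.43, adjusted p = 0.999). Over both treatments it was 0.30 (SE 0.30, adjusted p = 0.710), with an interval of 0.793-fold to 1.92-fold.

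**Figure D2:**
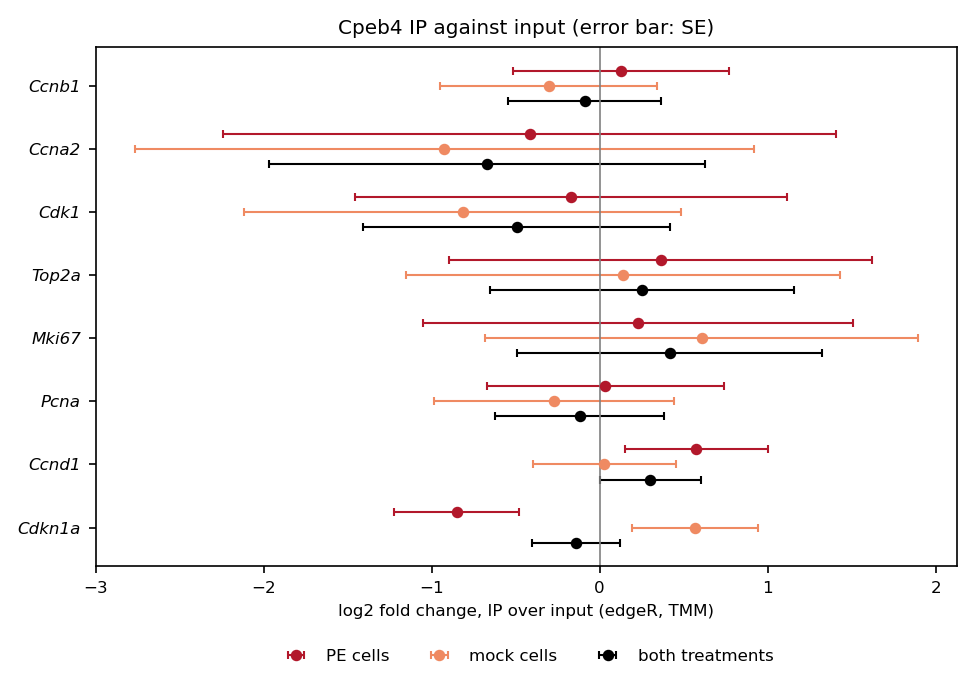
Log2 fold change of Cpeb4 IP over input (horizontal axis, edgeR with TMM factors) for each transcript in PE cells, in mock cells and over both treatments; points are estimates and error bars the SE. Cdkn1a lies at -0.85 in PE cells and at 0.57 in mock cells. Over both treatments all 8 transcripts lie within about 1 SE of 0, Cdkn1a at -0.14 (SE 0.26) among them.

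Cdkn1a, which encodes p21, an inhibitor of cyclin-dependent kinases, was the one member whose IP and input libraries separated with TMM factors. In PE cells it had 67.4, 40.5 and 56.2 CPM in IP, against 146, 74.1 and 76.8 CPM in input. In mock cells it had 88.5, 114 and 88.3 CPM in IP, against 63.5, 75.8 and 56.5 CPM in input. All PE precipitates thus lay below all PE inputs, and all mock precipitates above all mock inputs. Of all genes tested, 9.21% lay lower without overlap in PE cells and 9.96% higher without overlap in mock cells. The log2 fold change was -0.85 in PE cells (SE 0.37, edgeR adjusted p = 0.364) and 0.57 in mock cells (SE 0.37, adjusted p = 0.663), and neither passed. The difference between them was -1.42 (SE 0.53, unadjusted p = 0.0159, edgeR adjusted p = 1.00), where 0% of genes passed after adjustment and 1.17% were lower and 1.41% higher at an unadjusted p under 0.05. In all, 0.248% of genes separated in opposite directions in the treatments, with the order of Cdkn1a and its reverse counted together. By library totals Cdkn1a overlapped in PE cells and stayed apart in mock cells. In mock cells 2 of the 8 members (Cdkn1a and Mki67) and 33% of all genes lay higher in IP without overlap by library totals.

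For the other 7 members the difference of IP enrichment between PE and mock cells lay between -0.38 (Mki67) and 0.64 (Cdk1) on the log2 scale, with SEs of 0.60 (Ccnd1) to 2.58 (Ccna2), and 0 members passed (edgeR, adjusted p = 1.00 each). At these SEs a change of enrichment of several-fold could not be detected for Ccna2, Cdk1, Top2a or Mki67. The 95% intervals of Ccnb1 (0.353-fold to 5.13-fold) and Pcna (0.283-fold to 5.41-fold) also left room for such changes. That of Ccnd1 ran from 0.604-fold to 3.53-fold. The Wald test of DESeq2 also passed 0 members.

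The scaling set the side of 0 on which several members lay. With library totals in place of TMM factors, the all-gene median of the log2 fold change moved by 1.15 over both treatments, and all 8 members had positive values. Their median was then 1.13, against 1.31 for all genes tested. With TMM factors the medians were -0.10 for the members and 0.16 for all genes. The members' median lay below that of all genes under both scalings. A change of scaling moves most genes alike, so the second scaling is no separate support for this. The median SE over all genes was 0.81 with TMM factors. By library totals 1 member passed over both treatments, where 2823 of the 10491 genes tested were higher and 65 lower. It was Ccnd1 at 1.38 (edgeR adjusted p = 0.0107, range 0.0107 to 0.960 over its alternatives). In mock cells Cdkn1a passed at 1.71 (adjusted p = 0.0489, range 0.0489 to 0.906), where 842 genes were higher and 10 lower. The value of Ccnb1 was then 1.14 (adjusted p = 0.072), under the median of all genes.

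**Figure D3:**
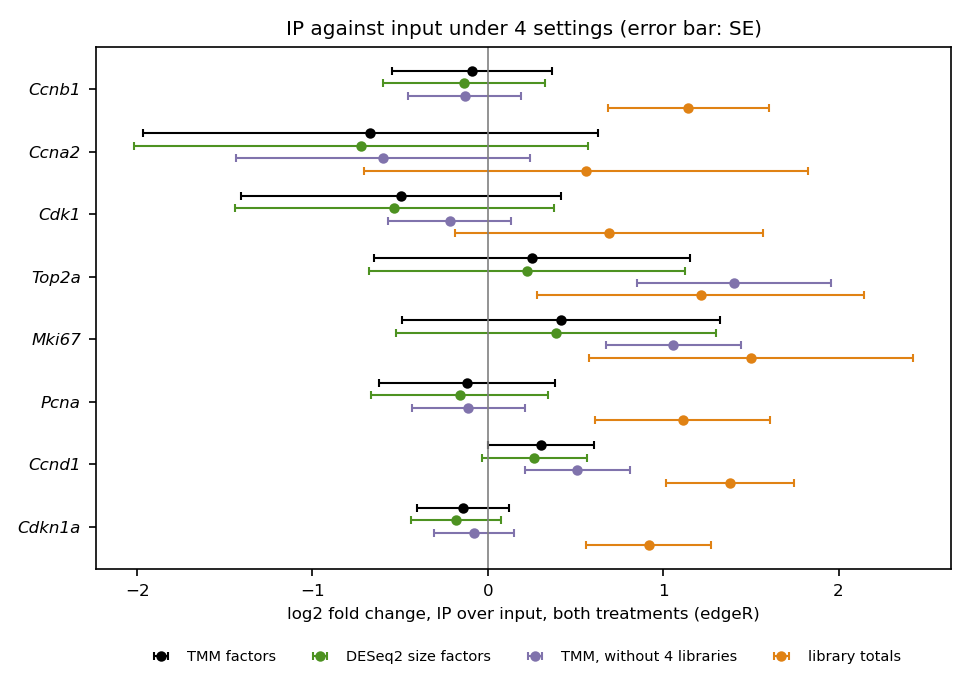
Log2 fold change of Cpeb4 IP over input over both treatments (horizontal axis, edgeR) for each transcript under 4 settings; points are estimates and error bars the SE. With library totals all 8 values lie above 0, with Ccna2 (0.56) and Cdk1 (0.69) farthest below the median of all genes at 1.31, and with TMM or DESeq2 size factors 3 of 8 lie above 0.

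PE left the members without a detected change in either pool. In the precipitates, 0 members were higher and 0 lower in PE than in mock cells (edgeR adjusted p under 0.05), where 0.00953% of genes were higher and 0% lower. In input, 0 members passed in either direction, against 0.00953% of genes higher and 0% lower. At an unadjusted p under 0.05, 1 member was higher (Ccnd1, background 2.94%) and 1 lower (Cdkn1a, background 2.6%) in the precipitates. In input 0 were higher (background 2.28%) and 0 lower (background 1.3%). The Wald test of DESeq2 passed 0 members in both pools. Each library entered an IP and a PE comparison, so these results share samples with those above.

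Ccnd1 had 157, 226 and 76.4 CPM in PE IP, against 79.1, 37.3 and 82.3 CPM in mock IP. A single PE library, replicate 3, fell within the mock range, and by library totals the groups did not overlap (121 to 344 CPM in PE IP, against 54.4 to 115 CPM in mock IP, background 10.9%). The log2 fold change was 1.21 (SE 0.43, unadjusted p = 0.0122, edgeR adjusted p = 0.756). In input Ccnd1 had 127, 110.0 and 71.4 CPM in PE cells, against 68.1, 66.9 and 59.2 CPM in mock cells. These groups did not overlap, as was so for 5.67% of genes in that direction, but they did overlap by library totals. The log2 fold change in input was 0.66 (SE 0.43, adjusted p = 1.00).

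Cdkn1a averaged 54.7 ± 13.5 CPM in PE IP and 97.1 ± 15.0 CPM in mock IP (SD, n = 3 each). The PE precipitates lay below the mock precipitates without overlap, also by library totals, where 6.29% of genes did so with TMM factors and 4.46% by library totals. The log2 fold change was -0.83 (SE 0.37, unadjusted p = 0.0412, edgeR adjusted p = 0.856). In input it averaged 98.9 ± 40.6 CPM in PE cells and 65.3 ± 9.78 CPM in mock cells (SD, n = 3 each), which gives 0.59 on the log2 scale (SE 0.37, adjusted p = 1.00). PE input replicate 1, at 146 CPM, stood above the other PE inputs, and without it the value in input was 0.20.

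Top2a had the largest point estimates of the 8 in both pools, although they did not pass. It had 4.86, 20.4 and 25.2 CPM in PE IP, against 7.78, 0.0385 and 7.52 CPM in mock IP. In input it had 22.2, 7.01 and 9.85 CPM in PE cells, against 2.17, 7.54 and 4.04 CPM in mock cells. In both pools 1 PE library lay within the mock range. The log2 fold changes were 1.72 in IP (SE 1.29, edgeR adjusted p = 1.00) and 1.49 in input (SE 1.31, adjusted p = 1.00). The value in IP was 1.13 without mock IP replicate 2. The value in input was 0.86 without PE input replicate 1 and 2.14 without mock input replicate 2. The mock inputs held 9, 33 and 3 Top2a counts.

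The other 5 members had log2 fold changes of PE against mock between -0.95 (Mki67) and 0.57 (Pcna) in IP, and between -0.68 (Ccnb1) and 0.27 (Pcna) in input. Their libraries overlapped between PE and mock cells in both pools. Single libraries moved these extremes. Without PE IP replicate 3 the values in IP were -0.51 for Pcna and -1.94 for Mki67, and without PE IP replicate 1 the Mki67 value was -0.35. In input the Pcna value was -0.11 without PE replicate 2 and -0.02 without PE replicate 3. Ccnb1 averaged 27.3 ± 14.3 CPM in PE IP and 32.4 ± 13.5 CPM in mock IP (SD, n = 3 each), which gives -0.25 on the log2 scale (SE 0.64, edgeR adjusted p = 1.00). In input it averaged 25.1 ± 12.4 CPM in PE cells and 40.6 ± 28.1 CPM in mock cells, where replicate 3 alone had 70.0 CPM, and without that library the log2 fold change of -0.68 was -0.05.

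**Figure D4:**
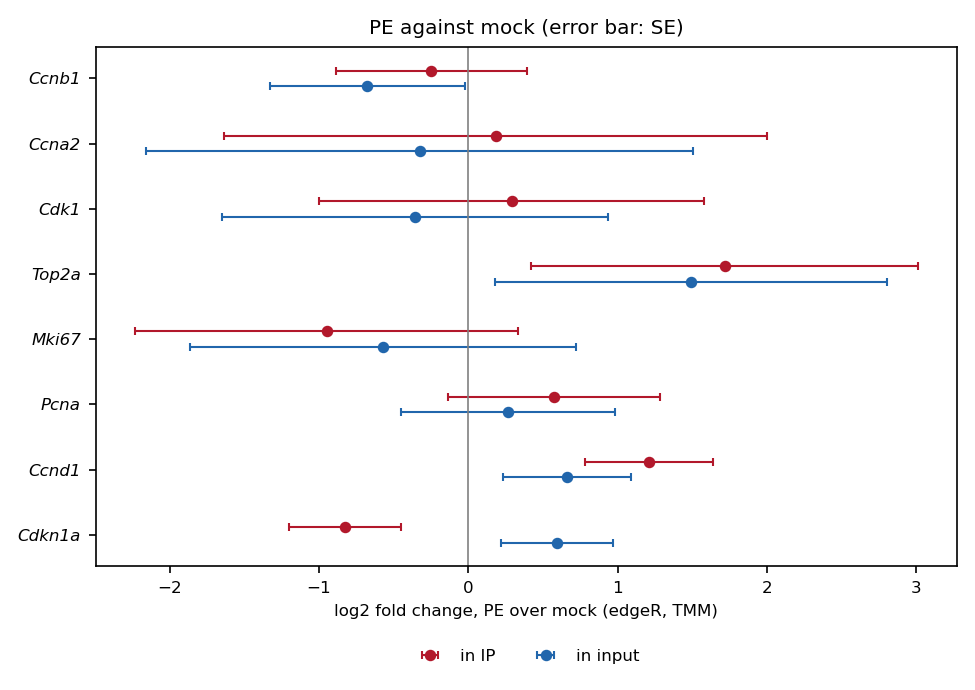
Log2 fold change of PE over mock (horizontal axis, edgeR with TMM factors) in IP and in input for each transcript; points are estimates and error bars the SE. Top2a lies farthest to the right in both pools (1.72 and 1.49), and Cdkn1a lies at -0.83 in IP and at 0.59 in input.

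The order of group means differed from member to member. Ccna2 and Cdk1 followed the same order, with mock input highest, then PE input, PE IP and mock IP. Ccnd1 and Top2a had PE IP highest and mock input lowest. Neighbours in the order differed by more than the larger SD in 2 places, PE input above mock IP for Ccnd1 and mock IP above mock input for Cdkn1a.

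Across the 12 libraries, levels on the log2(CPM + 1) scale ran together most for Ccna2 and Cdk1 (Pearson r = 0.83, Spearman rho = 0.70), Ccna2 and Pcna (0.80 and 0.87) and Cdk1 and Pcna (0.75 and 0.72). Without the 4 libraries these values of r were 0.75, 0.68 and 0.75 over 8 libraries. Ccnb1 and Pcna had an r of 0.61 over 12 libraries and -0.10 over 8. The points share library and depth, so these are descriptions of the libraries.

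Among 7605 candidate genes, the pattern most like that of Ccnb1 over the 12 libraries was that of ENSRNOG00000003338 (Pearson r = 0.89), followed by ENSRNOG00000012994 (r = 0.88). ENSRNOG00000003338 averaged 55.9 CPM in PE IP, 68.0 in mock IP, 58.7 in PE input and 88.9 in mock input. ENSRNOG00000012994 had 0 or 1 count in IP and input of mock replicate 2 and of PE replicate 1, and 8 to 146 counts in the other 8 libraries. Other measures of likeness, or the 8 libraries alone, ranked other genes first.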

How the data were processed

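The deposited table holds raw counts per Ensembl rat gene. Per the submitters' processing notes, cutadapt 2.5, STAR 2.7, featureCounts 1.6.4, DESeq2 and the build Rnor_6.0 were used. Their options, including strand and the handling of near-identical gene copies, were not given in the sources used here. Per the labels' protocols, a 3′ end kit was applied to 200 ng of RNA per library. The 32883 blank lines of the table were skipped, leaving 32883 genes.

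The test was the quasi-likelihood test of edgeR 4.0.16 (R 4.3.3), after filterByExpr (10491 genes kept, all 8 members among them), TMM factors and 1 quasi-likelihood fit of 4 group means over 12 libraries. Benjamini-Hochberg adjustment ran over all genes tested, with a threshold of 0.05. Standard errors (SE) were derived from each log2 fold change and the square root of F, and 95% intervals are approximate. The named genes are the 8 members and the 2 genes most like Ccnb1. Members, lists and alternatives were chosen with earlier results of these data known. Candidates for likeness to Ccnb1, by Pearson r of log2(CPM + 1), had a mean of at least 5 CPM. The steps were tested on simulated counts, drawn independently for each library and without the gaps of single libraries seen here. That test therefore does not cover the effect of such gaps.

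The labels do not state that replicates are different animals or cultures, and p-values measure only a spread among samples that may be technical. Replicates differed beyond sampling noise (chi-square per degree of freedom at least 7.79). Input and IP share replicate numbers. Deviations from the group means of same-numbered IP and input libraries correlated at r = 0.16, 0.26 and 0.12 in mock cells, over the limit of 0.1 for pairing in each case, and at 0.23, 0.024 and 0.23 in PE cells, where 1 pair was under it. Some pairs with different numbers also passed that limit (mock IP 1 with mock input 3 at 0.14, mock IP 3 with mock input 1 at 0.11, PE IP 3 with PE input 2 at 0.22). Alternatives were DESeq2 size factors, library totals, no gene filter, the DESeq2 Wald test (version 1.42.0), the 6 libraries of a comparison alone, replicate blocks, leaving out each library, and leaving out mock replicate 2 and PE replicate 1.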

Additional observations from a re-analysis of the deposited data

Results flagged for a closer look

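Cdkn1a drew attention because its libraries moved in opposite directions in the treatments. All 3 PE precipitates lay below the 3 PE inputs, and all 3 mock precipitates lay above the 3 mock inputs. Of 10491 genes tested, 26 (0.248%) separated in opposite directions in the treatments. That number takes the order of Cdkn1a and its reverse together, and the share with its order alone was not counted. The difference of IP enrichment between PE and mock cells was -1.42 on the log2 scale (SE 0.53, unadjusted p = 0.0159), which did not pass after adjustment over all genes (edgeR adjusted p = 1.00, range 0.658 to 1.00 over its alternatives). The value kept its sign with each library left out, between -1.60 and -1.02. The unadjusted p was highest, at 0.0579, without PE input replicate 1, which had 146 CPM against 74.1 and 76.8 CPM in the other PE inputs. By library totals the PE precipitates (61.6 to 106 CPM) overlapped the PE inputs (43.5 to 140 CPM), and the separation in mock cells remained. The part of that library in the result was not tested beyond leaving it out.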

How the results depend on the processing

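Across 896 refits of the members' log2 fold changes, 86 changed sign and 2 passed the threshold where the reported value had not. None of the reported values had passed, so no called direction reversed. Library totals changed 12 of 48 signs, leaving out mock replicate 2 and PE replicate 1 (4 libraries) changed 10 of 48, and leaving out single libraries 55 of 576. Members passing stayed at 0 in every comparison and setting, except 1 higher in mock cells and 1 higher over both treatments by library totals.

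Counts over all genes moved more, and the cause was not tested. Higher and lower genes for IP against input were 48 and 173 in PE cells, 17 and 61 in mock cells and 237 and 380 over both as reported. Library totals gave 641 and 24, 842 and 10, and 2823 and 65. No filter gave 158 and 265, 156 and 191, and 411 and 491. The Wald test of DESeq2 gave 196 and 401, 129 and 251, and 492 and 600. The 6 libraries alone gave 30 and 107 in PE and 0 and 13 in mock cells. The replicate block within treatment gave 128 and 293, 95 and 177, and 347 and 512. Without the 4 libraries the counts were 357 and 621, 164 and 344, and 670 and 859. Leaving out single libraries gave 3 to 83 and 60 to 249, 0 to 19 and 0 to 71, and 119 to 279 and 258 to 429.

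For PE against mock in IP (1 and 0 as reported), no filter gave 17 and 13, the Wald test 28 and 13, 6 libraries 0 higher, and leaving out the 4 libraries 19 and 17. In input (1 and 0), these gave 14 and 1, 14 and 1, 2 higher and 8 higher, and single libraries left out 0 to 4. The difference of enrichment had 1 lower gene without a filter and 2 by the Wald test. The replicate block by number left PE against mock at 1 and 0 in both pools. Same-numbered PE and mock libraries correlated at -0.26 to 0.15, with replicate 3 over the limit of 0.1 in both pools. A pair with different numbers reached 0.32 (PE input 1 with mock input 2). Whether those numbers pair samples is therefore not settled by these values. Ccna2, Mki67, Cdk1 and Top2a each had a library at 0 or 1 count, and these include the deepest library. The part of depth in this was not tested.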
